A study of Mus musculus with 14 samples.

Results

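DNA methylation in mammals is set, copied and removed by a small group of enzymes, and 9 of their genes were followed here through bone marrow progenitors and MLL-AF9 cultures. The genes were listed by name for their role, as the DNA methyltransferases Dnmt1, Dnmt3a and Dnmt3b, the Dnmt1 cofactor Uhrf1, the 5-methylcytosine dioxygenases Tet1, Tet2 and Tet3, and the isocitrate dehydrogenases Idh1 and Idh2. They are 9 of the 52550 genes in the count table, and all 9 passed the filter on low counts in each comparison. RNA of 14 mouse samples was sequenced after depletion of ribosomal RNA, and the comparisons ask what differs between normal progenitors, progenitors without Mir139 and progenitors transformed by a leukemia fusion gene.

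WT HSPCs (n = 4) were hematopoietic stem and progenitor cells enriched from the bone marrow of C57BL/6 mice aged 8 to 20 weeks by a progenitor enrichment kit. Mir139KO HSPCs (n = 4) were enriched in the same way from mice of that strain and age that lack the microRNA gene Mir139, and all 14 samples are of that strain. The MLL-AF9 samples (n = 6) were WT HSPCs grown overnight in a cytokine mix with GM-CSF and SCF and infected with a retrovirus that carries the leukemia fusion gene MLL-AF9. These cells were selected with the matching drug and re-plated repeatedly in methylcellulose. The study's methods then describe further expansion of MLL-AF9 cells in a medium with serum and cytokines. Of the MLL-AF9 samples, 3 carried the vector pMSCV-MLL-AF9-neo (replicates 1 to 3) and 3 carried pMSCV-MLL-AF9-puro (replicates 4 to 6). The protocol text is the same for all samples and covers cells lysed at once as well as expanded cells. The HSPC samples were taken as not cultured, which their own labels do not state. No sample is labelled as cultured HSPCs without the fusion gene, so the fusion gene, the culture and the selection cannot be told apart. Nothing in the labels says whether replicates came from separate mice or transductions, so the p-values measure only the spread between these samples. The HSPC samples are enriched bone marrow and not purified stem cells, and with bulk RNA fewer cells of a type and less RNA per cell cannot be told apart.

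In background, Dnmt1 copies methylation onto the new DNA strand after replication, and Uhrf1 brings it there by binding half-methylated DNA. Dnmt3a and Dnmt3b place methyl groups on unmethylated cytosines. Tet1, Tet2 and Tet3 oxidise 5-methylcytosine with 2-oxoglutarate as cosubstrate, and Idh1 in the cytosol and Idh2 in mitochondria make 2-oxoglutarate from isocitrate. DNMT3A, TET2, IDH1 and IDH2 are recurrently mutated in human myeloid malignancies, where mutant IDH enzymes make 2-hydroxyglutarate, an inhibitor of TET enzymes.

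Total counts were 35016668 to 45877994 per library, and 3 counts, taken as the smallest level that can be seen, were 0.0654 to 0.0857 CPM on total counts. All other CPM, counts scaled by library size, include TMM factors, which adjust for differences in RNA composition. Mir139 itself had 0 counts in all 14 libraries, which leaves the knockout labels unchecked. A single noncoding gene, Gm26917, took 17 to 35.4% of counts in HSPC libraries and 7.55 to 10.4% in MLL-AF9 libraries. These ranges did not overlap, so this library difference cannot be told apart from the fusion gene, the culture and the selection either. The share was under 25% in WT replicates 1 and 2 and Mir139KO replicates 2 and 3, and over 25% in the other HSPC libraries. Several of the 9 genes moved with that split. MLL-AF9 replicates 4 and 6 correlated at 0.995 across genes, although their counts differed by more than sampling noise (chi-square 9 per degree of freedom). As a check of the labels, all 7 testable genes of 8 known MLL fusion targets rose in MLL-AF9 cells, with the homeobox gene Hoxa10 at 82.7 ± 29.1 CPM (SD, n = 6) against 0.773 ± 0.239 CPM (SD, n = 4) in WT HSPCs. Of 8 HSPC markers 4 fell, among them the progenitor antigen Cd34, from 39.8 (SD 5.56, n = 4) to 0.895 CPM (SD 0.686, n = 6).

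**Figure D1:**
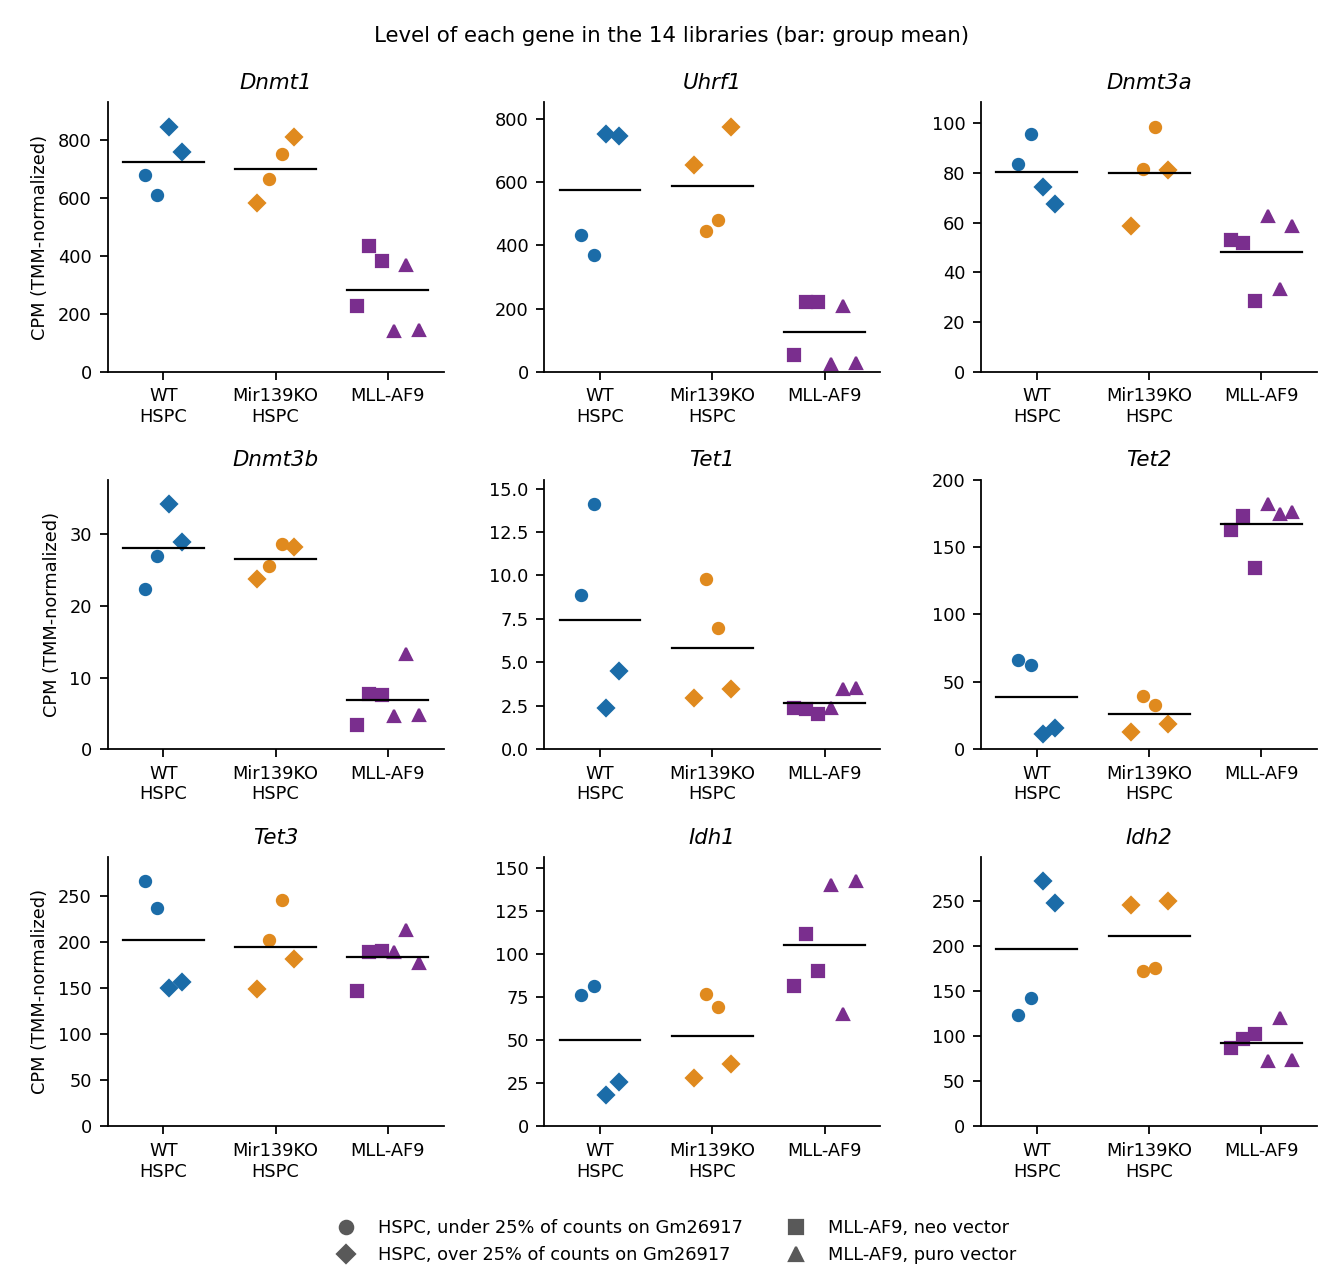
CPM with TMM factors for each of the 9 genes (linear axis from 0) in the 4 WT HSPC, 4 Mir139KO HSPC and 6 MLL-AF9 libraries, 1 point per library, with a bar at the group mean and the marker showing the Gm26917 share in HSPCs and the vector in MLL-AF9 cells. Tet2 was at 134.7 to 181.9 CPM in MLL-AF9 cells and at 11.3 to 66.3 CPM in HSPCs, while Dnmt1, Uhrf1, Dnmt3b and Idh2 lay lower in every MLL-AF9 library than in any HSPC library.

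In MLL-AF9 cells against WT HSPCs, Tet2 rose and Dnmt1, Uhrf1, Dnmt3a, Dnmt3b, Tet1 and Idh2 fell, whereas Tet3 and Idh1 did not pass the test. Thus 7 of 9 genes were called at an adjusted p under 0.05 in edgeR's quasi-likelihood test, where 62.2% of the 17077 genes tested were called. The single rise compares with 32.8% of all genes called higher, and the 6 falls with 29.4% called lower. The groups did not overlap for 6 of the 9 genes, and for 50.5% of all genes. The median log2 fold change of the 9 genes was -1.12, beside 0.14 over all genes tested. In MLL-AF9 cells against Mir139KO HSPCs, which shares the MLL-AF9 libraries with the first comparison, 2 genes were called higher and 6 lower. There, 69.3% of 16953 genes were called, 37.3% higher and 31.9% lower, and the groups did not overlap for 5 of the 9 genes and for 58% of all genes. Between Mir139KO and WT HSPCs 0 of the 9 genes and 0% of 15056 genes were called, and between puro and neo MLL-AF9 cultures 0 of the 9 genes and 0.873% of 16503 genes were called.

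**Figure D2:**
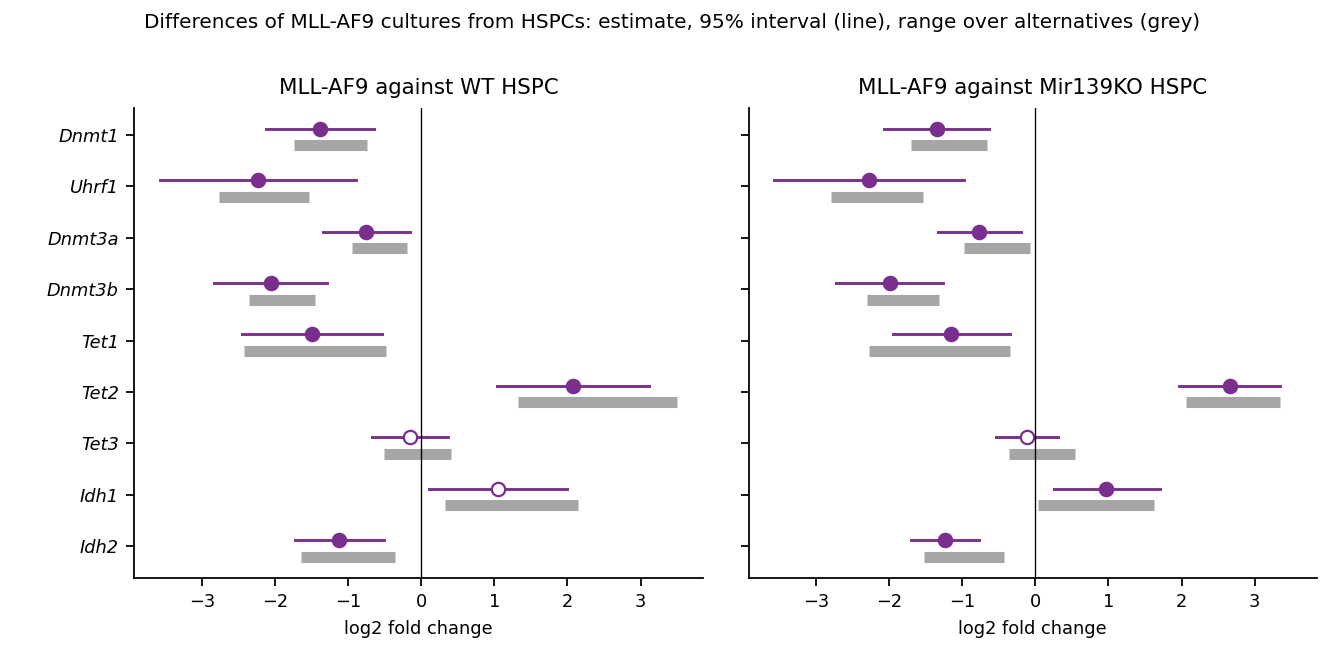
Log2 fold change of the 9 genes in MLL-AF9 cells against WT HSPCs (left) and Mir139KO HSPCs (right), with the 95% interval as a line, filled points at adjusted p under 0.05, and grey bars from the lowest to the highest estimate over 24 alternatives. Tet2 stayed to the right of 0 (1.32 to 3.50 against WT HSPCs) and Dnmt3b to the left (-2.35 to -1.46), while the grey bar of Tet3 crossed 0.

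The promoters of the pair that maintains methylation are shown first, because both genes fell and their windows shared a short motif. The sequences are from RefSeq on build GRCm38.p6 and run from 250 bases before to 50 after an annotated start, for the window of each gene with the most CG dinucleotides. All 9 genes matched, with 15 windows. The Dnmt1 window lies at chr9:20952574-20952873 (minus strand) and the Uhrf1 window at chr17:56304063-56304362 (plus strand), and capitals mark matches to the E2F-type motifs TTTCGCGC, TTTGGCGC or TTTCCCGC on either strand.
Dnmt1: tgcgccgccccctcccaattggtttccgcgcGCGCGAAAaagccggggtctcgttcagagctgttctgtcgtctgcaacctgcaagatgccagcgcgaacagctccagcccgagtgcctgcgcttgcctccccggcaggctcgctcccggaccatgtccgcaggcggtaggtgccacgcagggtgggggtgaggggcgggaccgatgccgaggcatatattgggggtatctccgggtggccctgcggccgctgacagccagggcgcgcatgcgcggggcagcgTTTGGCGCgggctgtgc
Uhrf1: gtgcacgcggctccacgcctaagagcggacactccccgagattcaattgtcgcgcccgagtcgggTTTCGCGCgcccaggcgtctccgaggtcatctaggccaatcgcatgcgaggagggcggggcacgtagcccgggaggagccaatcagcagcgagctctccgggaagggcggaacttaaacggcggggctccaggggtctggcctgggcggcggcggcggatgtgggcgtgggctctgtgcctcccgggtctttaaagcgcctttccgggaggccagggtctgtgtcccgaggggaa
E2F factors are known as regulators of replication genes. TTTCGCGC was found in both windows, starting at base -185 from the start in Uhrf1 and, on the opposite strand, at base -219 in Dnmt1. Of the 32851 promoter windows 0.323% held it. Those windows had a median of 7 CG dinucleotides, whereas the printed Dnmt1 and Uhrf1 windows held 33 each, and TTTCGCGC itself contains CG. The share among windows of similar CG content was not tested. The pair was also shown because of this motif, so the share does not measure how unusual the match is. Shares of the other motifs are likewise over all windows. TTTGGCGC was found once more in the Dnmt1 window at base 34 and in 0.514% of all windows, and TTTCCCGC in no window of the 9 genes and in 1.07% of all. In all, 12 short motifs were searched on both strands. Of the rest, the CHR motif TTTGAA (17.9% of all windows) was in windows of Dnmt1 and Dnmt3b, and the CCAAT box CCAAT (37.4%) in 7 of the 15 windows. The GC box GGGCGG (35.7%) was in 13 of the 15, the E box CACGTG (7.15%) in 1 of Dnmt3a, and the MEIS-type TGACAG (19.2%) in windows of Dnmt1 and Idh1. The ETS-type CCGGAAGT (3.89%), PU.1-type GAGGAAGT (3.2%), HOX-MEIS-type TGATTTAT (0.977%) and HOX-type ATGATTTA (0.673%) were in none of the 15. A window with several matches was counted once, motifs could overlap each other, and a match describes the letters and not a bound site.

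The promoters of Dnmt3b and Tet2 are shown because these 2 genes were called in opposite directions under all 24 alternatives. Here capitals mark CG dinucleotides, the bases that these enzymes methylate or whose methylation they remove. The Dnmt3b window is at chr2:153649199-153649498 (plus strand) and the Tet2 window at chr3:133544341-133544640 (minus strand).
Dnmt3b: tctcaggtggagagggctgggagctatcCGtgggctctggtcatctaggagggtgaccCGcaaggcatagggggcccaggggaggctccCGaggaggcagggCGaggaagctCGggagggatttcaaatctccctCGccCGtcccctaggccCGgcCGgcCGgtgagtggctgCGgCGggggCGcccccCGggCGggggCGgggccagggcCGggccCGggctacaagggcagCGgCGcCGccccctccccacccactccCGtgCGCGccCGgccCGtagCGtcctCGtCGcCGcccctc
Tet2: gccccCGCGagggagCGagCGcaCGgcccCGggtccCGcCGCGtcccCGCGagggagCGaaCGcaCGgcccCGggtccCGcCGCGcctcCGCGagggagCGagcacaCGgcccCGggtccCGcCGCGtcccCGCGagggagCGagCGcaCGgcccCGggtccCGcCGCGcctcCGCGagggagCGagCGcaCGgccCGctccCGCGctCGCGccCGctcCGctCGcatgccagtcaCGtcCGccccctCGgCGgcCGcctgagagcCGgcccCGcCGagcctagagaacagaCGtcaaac
The Tet2 window held 57 CG dinucleotides and the Dnmt3b window 30, against a median of 7 over all windows and 37 at the 95th percentile. The CG-richest windows of the other 7 genes held from 17 in Tet1 to 47 in Dnmt3a. DNA methylation itself was not measured in these samples.

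Dnmt1 (ENSMUSG00000004099), on chromosome 9 (20907209 to 20959888), fell to less than the level of any HSPC library. It was at 677.7, 609.5, 844.6 and 757.1 CPM in WT replicates 1 to 4 and at 581.4, 663.3, 750.4 and 809.2 CPM in Mir139KO replicates 1 to 4. In the 6 MLL-AF9 libraries the lowest value was 139.5, the median 298.0 and the highest 434.3 CPM. The log2 fold change was -1.38 (SE 0.35, adjusted p = 0.00423) against WT and -1.35 (SE 0.33, adjusted p = 0.003) against Mir139KO HSPCs. With a correction for GC content it was -0.74 (adjusted p = 0.103) against WT, and with total counts as the only scaling -0.78 (adjusted p = 0.0596), so the call is lost there while the direction stays.

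Uhrf1 (ENSMUSG00000001228), on chromosome 17 (56303321 to 56323486), showed the widest relative spread of the 9 genes among MLL-AF9 cultures. Its levels were 433.6, 367.7, 751.0 and 744.3 CPM in WT replicates 1 to 4 and 652.3, 445.4, 480.9 and 773.9 CPM in Mir139KO replicates 1 to 4. In MLL-AF9 cells they ran from 25.6 through a median of 130.4 to 220.8 CPM, below every HSPC library. Uhrf1 fell by 2.23 on the log2 scale against WT HSPCs (SE 0.62, adjusted p = 0.00762) and by 2.27 against Mir139KO HSPCs (SE 0.60, adjusted p = 0.00478). Against the 2 WT libraries under 25% Gm26917 the difference was -1.75 (adjusted p = 0.104), and with the GC correction -1.53 (adjusted p = 0.0571).

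The cultures with least Dnmt1 and Uhrf1 were also those with least RNA of 18 proliferation genes. MLL-AF9 replicates 1, 4 and 6 had 227.0, 139.5 and 145.5 CPM of Dnmt1 and 53.4, 25.6 and 27.1 CPM of Uhrf1, with summed proliferation levels of 1252.6, 644.7 and 684.7 CPM. Replicates 2, 3 and 5 had 434.3, 380.9 and 369.1 CPM of Dnmt1 and 220.0, 220.8 and 207.5 CPM of Uhrf1, with sums of 3478.7, 3029.3 and 3118.5 CPM. All 8 HSPC libraries lay above them, at sums from 4059.8 to 5303.9 CPM, and the part of proliferation in these levels was not tested. Of the 18 proliferation genes 8 fell and 2 rose in MLL-AF9 cells against WT HSPCs, with a median log2 fold change of -1.26. The replication helicase subunits Mcm7 and Mcm5 fell, from 585.1 ± 241.3 to 81.1 ± 58.0 CPM and from 764.8 ± 373.0 to 111.7 ± 86.7 CPM (SD, n = 4 and 6). The proliferation antigen Mki67 rose from 204.6 ± 95.9 to 509.4 ± 294.6 CPM and the mitotic checkpoint kinase Bub1 from 13.4 ± 11.6 to 44.3 ± 28.7 CPM (adjusted p = 0.0446 and 0.0493).

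**Figure D3:**
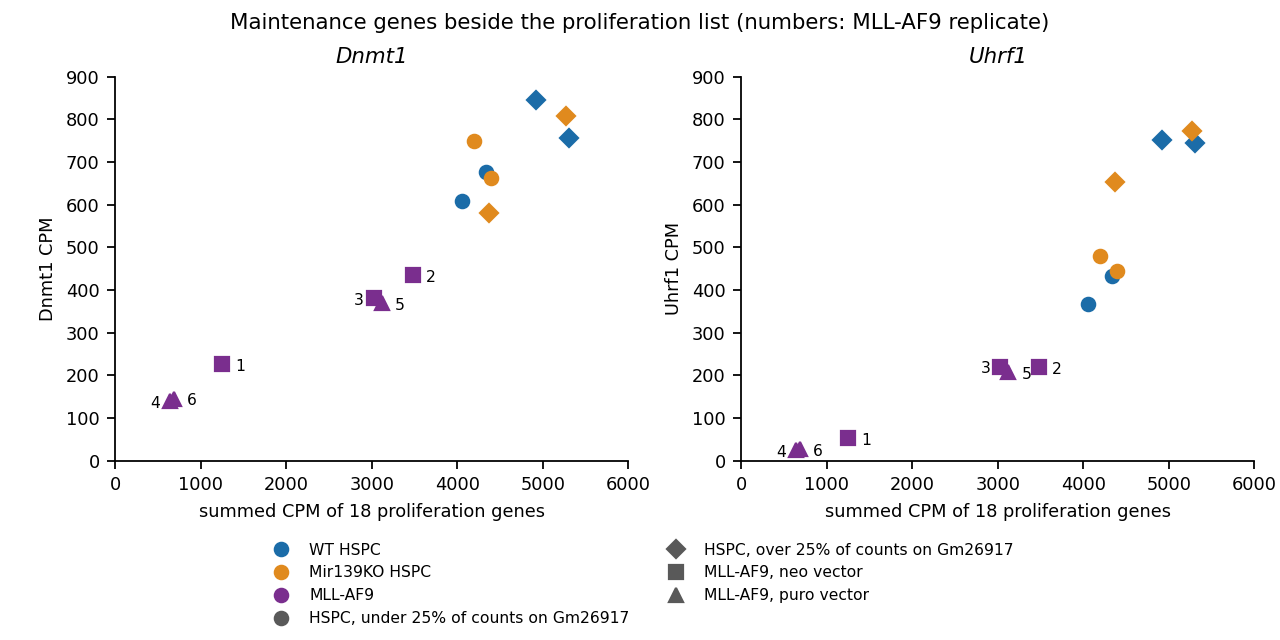
Dnmt1 (left) and Uhrf1 (right) in CPM against the summed CPM of 18 proliferation genes, 1 point per library, coloured by group and with MLL-AF9 replicate numbers printed. MLL-AF9 replicates 4, 6 and 1 sit lowest on both axes, replicates 3, 5 and 2 between, and the HSPC libraries highest, from 4059.8 CPM of the proliferation list upward.

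Within a library, the level of Uhrf1 per length relative to Dnmt1 was lower in MLL-AF9 cells, to differing degrees. The log2 ratio of their RPKM (CPM divided by the kilobases of exon) was on average 0.40 for WT HSPCs (SD 0.35, n = 4), 0.51 for Mir139KO HSPCs (SD 0.39, n = 4) and -0.80 for MLL-AF9 cultures (SD 0.81, n = 6). It was between -1.65 and -1.30 in MLL-AF9 replicates 1, 4 and 6 and between -0.19 and 0.01 in the other cultures, against 0.06 to 0.22 in the HSPC libraries under 25% Gm26917 and 0.62 to 0.96 in those over 25%. MLL-AF9 replicates 2, 3 and 5 thus lay just below the HSPC libraries of low Gm26917 share. Among 11 listed partners of maintenance 9 were tested, of which 3 rose and 5 fell against WT HSPCs with a median of -1.12. The falls included Trim28, a corepressor that holds methylation at imprinted genes, from 782.4 ± 404.2 to 110.5 ± 47.3 CPM, and Lig1, the replicative DNA ligase, from 318.6 ± 106.7 to 58.5 ± 38.7 CPM (SD, n = 4 and 6). The rises included Hells, a chromatin remodeler needed for methylation, from 14 ± 8.65 to 78.6 ± 59.2 CPM, and the zinc finger gene Zfp57 from 0.308 ± 0.0954 to 2.45 ± 1.21 CPM. Pclaf was listed at 0 in all 14 libraries. Group means of this and the later lists pool HSPC libraries of low and high Gm26917 share. WT values of Trim28, for example, ran from 411.1 to 1177.9 CPM. How these partner genes differ by Gm26917 share or with the GC correction is not reported here. The list counts stand beside 32.8% of all genes called higher and 29.4% lower against WT HSPCs.

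The de novo methyltransferases differed from each other. Dnmt3b (ENSMUSG00000027478), on chromosome 2 (153649450 to 153687730), was at 22.3, 27.0, 34.2 and 28.9 CPM in WT replicates 1 to 4 and at 23.8, 25.6, 28.6 and 28.2 CPM in Mir139KO replicates 1 to 4. In MLL-AF9 cells the lowest, median and highest values were 3.37, 6.19 and 13.3 CPM, with no overlap with HSPCs. The log2 fold change of -2.06 against WT (SE 0.36, 95% interval -2.84 to -1.29, adjusted p = 4.57e-04) and of -1.99 against Mir139KO HSPCs (SE 0.34, adjusted p = 2.36e-04) was called under all 24 alternatives. Dnmt3b was also among the genes of this set with little difference between HSPC libraries of low and high Gm26917 share, at 22.3 to 28.6 and 23.8 to 34.2 CPM.

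Dnmt3a (ENSMUSG00000020661), on chromosome 12 (3806007 to 3914443), changed less. It was at 83.5, 95.8, 74.2 and 67.6 CPM in WT replicates 1 to 4 and at 58.8, 81.5, 98.5 and 81.2 CPM in Mir139KO replicates 1 to 4, against a lowest value of 28.4, a median of 52.3 and a highest value of 62.8 CPM in MLL-AF9 cells. MLL-AF9 cells lay below all WT libraries but overlapped Mir139KO replicate 1. The log2 fold change was -0.76 against WT (SE 0.27, adjusted p = 0.0299) and -0.77 against Mir139KO HSPCs (SE 0.26, adjusted p = 0.019). Against WT the call was kept in 12 of 24 alternatives only, and leaving out WT replicate 1 or 2 or MLL-AF9 replicate 3 or 5 gave adjusted p of 0.0548, 0.0551, 0.0615 and 0.0605. With the GC correction the difference was -0.33 (adjusted p = 0.26), and with total counts only -0.19 (adjusted p = 0.654). Of its exon bases 0.8% overlap the antisense gene Dnmt3aos, and the strand setting of the counts is not given in the sources used here.

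Of 8 listed partners of de novo methylation 7 were tested, and 2 rose and 1 fell against WT HSPCs with a median of -0.06. Dnmt3l, the catalytically inactive partner of Dnmt3a and Dnmt3b that is best known from germ cells, rose from 0.3 ± 0.152 to 6.12 ± 1.21 CPM (SD, n = 4 and 6), or by 4.30 on the log2 scale (SE 0.43, adjusted p = 1.11e-05). Setd2, which places the H3K36me3 mark read by the DNMT3 enzymes, rose from 52.5 ± 31.2 to 249.9 ± 51.2 CPM, and the H3K9 methyltransferase gene Ehmt2 fell from 298.6 ± 147.2 to 101.7 ± 9.63 CPM. The per-length level of Dnmt3b relative to Dnmt3a had a log2 ratio of, on average, 0.19 for WT HSPCs (SD 0.41, n = 4), 0.13 for Mir139KO HSPCs (SD 0.21, n = 4) and -1.19 for MLL-AF9 cultures (SD 1.09, n = 6), where replicate 5 at 0.37 overlapped the HSPCs.

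The 3 Tet genes went in different directions. Tet2 (ENSMUSG00000040943), on chromosome 3 (133463679 to 133545139), was at 66.3, 62.8, 11.3 and 15.8 CPM in WT replicates 1 to 4 and at 12.6, 39.4, 33.1 and 18.5 CPM in Mir139KO replicates 1 to 4. In the MLL-AF9 libraries the lowest value was 134.7, the median 173.7 and the highest 181.9 CPM, so that every culture was above every HSPC library. Tet2 rose with a log2 fold change of 2.08 against WT (SE 0.48, 95% interval 1.04 to 3.12, adjusted p = 0.00264) and of 2.66 against Mir139KO HSPCs (SE 0.32, adjusted p = 1.99e-05), and the call was kept in all 24 alternatives of each. The size of the rise depended on the HSPC libraries, with 1.32 (adjusted p = 0.00125) against the WT libraries under 25% Gm26917 and 3.50 (adjusted p = 1.42e-05) against those over 25%. Tet2 shares 0.3% of its exon bases with the antisense gene Gm42567.

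Tet1 (ENSMUSG00000047146), on chromosome 10 (62804570 to 62908996), was the least abundant of the 9 genes. WT replicates 1 to 4 had 8.9, 14.1, 2.34 and 4.48 CPM and Mir139KO replicates 1 to 4 had 2.92, 9.8, 6.99 and 3.47 CPM, against a lowest value of 2.05, a median of 2.36 and a highest value of 3.51 CPM in MLL-AF9 cells, which overlapped both HSPC groups. Its log2 fold change was -1.49 against WT (SE 0.44, adjusted p = 0.0108) and -1.15 against Mir139KO HSPCs (SE 0.37, adjusted p = 0.0144). Its size differed with the HSPC libraries and the processing. Against the WT libraries over 25% it was -0.48 (adjusted p = 0.296), against those under 25% it was -2.16 (adjusted p = 0.00121), and without WT replicate 2 it was -1.03 (adjusted p = 0.0537). Against Mir139KO HSPCs it was -1.72 (adjusted p = 0.00244) and -0.35 (adjusted p = 0.416) for the libraries under and over 25%, and -0.78 (adjusted p = 0.0831) without Mir139KO replicate 2. With the GC correction the fall was larger, at -2.26 (adjusted p = 1.03e-04) against WT and -2.10 (adjusted p = 7.76e-05) against Mir139KO HSPCs, and with total counts only it was -1.09 (adjusted p = 0.106) and -0.58 (adjusted p = 0.282).

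Tet3 (ENSMUSG00000034832), on chromosome 6 (83362373 to 83459084), did not pass the test. It was at 265.8, 236.8, 150.0 and 156.6 CPM in WT replicates 1 to 4, at 148.8, 202.5, 246.0 and 181.6 CPM in Mir139KO replicates 1 to 4, and at 146.5 (lowest), 188.8 (median) and 212.9 CPM (highest) in MLL-AF9 cells. The groups overlapped, and the log2 fold change was -0.16 against WT (95% interval -0.68 to 0.36, adjusted p = 0.584) and -0.11 against Mir139KO HSPCs (95% interval -0.54 to 0.31, adjusted p = 0.619). It was -0.51 (adjusted p = 0.0431) against the WT libraries under 25% Gm26917 and 0.35 with the GC correction or total counts only.

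Within a library, Tet1 relative to Tet2 had similar ratios in HSPC libraries of either Gm26917 share, although both levels moved with it. The log2 ratio of their RPKM was on average -2.16 for WT HSPCs (SD 0.45, n = 4), -2.07 for Mir139KO HSPCs (SD 0.17, n = 4) and -5.86 for MLL-AF9 cultures (SD 0.28, n = 6), with MLL-AF9 values from -6.16 to -5.52 and HSPC values from -2.77 to -1.69. The mean was -2.20 in the 4 HSPC libraries under and -2.03 in the 4 over 25%. Relative to Tet2, Tet3 had a log2 ratio of, on average, 2.76 for WT HSPCs (SD 0.92, n = 4), 3.04 for Mir139KO HSPCs (SD 0.52, n = 4) and 0.15 for MLL-AF9 cultures (SD 0.23, n = 6). That ratio did move with the Gm26917 share, with values from 1.93 to 2.91 in the 4 HSPC libraries under 25% and from 3.31 to 3.75 in the 4 over 25%, and the cultures lay below both, from -0.13 to 0.52. These ratios do not depend on how libraries are scaled.

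Of 18 listed genes for oxidised base repair and TET partners 15 were tested, and 3 rose and 5 fell against WT HSPCs with a median of -0.03. Ogt, the O-GlcNAc transferase that binds TET proteins, rose from 57.1 ± 33.3 to 304.8 ± 115.2 CPM, and the glycosylase gene Neil2 was at 0.033 to 0.163 CPM in WT HSPCs, at or near the smallest visible level, and at 3.39 ± 3.0 CPM in MLL-AF9 cells (SD, n = 6). Cxxc5, a CXXC-domain protein that binds Tet2, fell from 24.8 ± 4.52 to 3.46 ± 1.66 CPM, and the abasic site endonuclease gene Apex1 fell from 30.7 ± 12.5 to 6.36 ± 3.99 CPM (SD, n = 4 and 6). Tdg, the glycosylase that excises oxidised methylcytosine, was at 43.6 CPM in WT HSPCs and 35.5 CPM in MLL-AF9 cells on average (adjusted p = 0.373). Among 7 genes listed as methyl-CpG readers or their relatives 3 rose and 1 fell, with a median of 0.39. Zbtb38 rose from 26.8 ± 20.3 to 93.4 ± 33.9 CPM and Zbtb33 from 5.99 ± 5.04 to 18.9 ± 3.65 CPM, whereas Mbd3, a subunit of the NuRD complex, fell from 161.1 ± 79.5 to 33.0 ± 13.6 CPM (SD, n = 4 and 6).

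The isocitrate dehydrogenases also parted. Idh2 (ENSMUSG00000030541), the mitochondrial enzyme, on chromosome 7 (80094846 to 80115392), was at 123.1, 142.6, 271.2 and 246.9 CPM in WT replicates 1 to 4 and at 245.4, 171.6, 175.4 and 249.0 CPM in Mir139KO replicates 1 to 4. In MLL-AF9 cells the lowest, median and highest values were 72.1, 91.5 and 119.8 CPM, below all HSPC libraries. It fell by 1.12 on the log2 scale against WT (SE 0.28, adjusted p = 0.00426) and by 1.24 against Mir139KO HSPCs (SE 0.21, adjusted p = 2.72e-04). The difference from WT was -0.59 (adjusted p = 0.0439) for the libraries under 25% Gm26917, -1.64 (adjusted p = 1.17e-04) for those over 25%, and -0.36 (adjusted p = 0.19) with the GC correction. With total counts only it was -0.42 (adjusted p = 0.0978).

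Idh1 (ENSMUSG00000025950), the cytosolic enzyme, on chromosome 1 (65158616 to 65186500), was at 76.4, 81.5, 18 and 25.9 CPM in WT replicates 1 to 4, at 28.3, 76.7, 69.4 and 36.5 CPM in Mir139KO replicates 1 to 4, and at 65.2 (lowest), 101.2 (median) and 142.4 CPM (highest) in MLL-AF9 cells. MLL-AF9 replicates 5 and 1, at 65.2 and 81.4 CPM, lay below the highest HSPC library, and the other cultures above it. The log2 fold change of 1.05 against WT missed the threshold (SE 0.44, 95% interval 0.10 to 2.0, adjusted p = 0.0525) and that of 0.97 against Mir139KO HSPCs passed it (SE 0.33, adjusted p = 0.0204). Against WT, 9 of 24 alternatives called it, with DESeq2 at an adjusted p of 0.0265. The difference was 0.37 (adjusted p = 0.389) against the WT libraries under 25% Gm26917 and 2.15 (adjusted p = 0.00153) against those over 25%. Against the Mir139KO libraries these values were 0.47 (adjusted p = 0.272) and 1.62 (adjusted p = 0.00542). Against Mir139KO HSPCs it was 0.03 (adjusted p = 0.924) with the GC correction, and 0.73 and 0.79 (adjusted p = 0.0782 and 0.0853) without Mir139KO replicate 1 or 4.

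Per length, Idh1 relative to Idh2 had a log2 ratio of, on average, -2.26 for WT HSPCs (SD 1.66, n = 4), -2.19 for Mir139KO HSPCs (SD 0.99, n = 4) and 0.07 for MLL-AF9 cultures (SD 0.71, n = 6). It ranged from -1.44 to -0.79 in the HSPC libraries under 25% Gm26917 and from -4.01 to -2.87 in those over 25%, and MLL-AF9 replicate 5 at -0.98 lay within the former range. Of 14 other genes of 2-oxoglutarate and 2-hydroxyglutarate metabolism 0 rose and 10 fell against WT HSPCs, with a median of -1.0. Sdhb, a subunit of succinate dehydrogenase, fell from 140.5 ± 57.1 to 30.2 ± 5.75 CPM and Idh3g, a subunit of the NAD-dependent isocitrate dehydrogenase, from 183.8 ± 76.1 to 51.1 ± 10.8 CPM (SD, n = 4 and 6). The 2-hydroxyglutarate dehydrogenase gene D2hgdh was at 24.8 ± 5.45 CPM in WT HSPCs and 17.4 ± 2.14 CPM in MLL-AF9 cells (log2 fold change -0.53, adjusted p = 0.0691), and the difference from Mir139KO HSPCs passed the test (log2 fold change -0.59, adjusted p = 0.0226). Of 11 genes listed for the S-adenosylmethionine cycle, which supplies the methyl donor, 1 rose and 3 fell with a median of -0.42. Ahcy, which clears S-adenosylhomocysteine, fell from 187.0 ± 86.2 to 29.2 ± 18.6 CPM, and the folate enzyme gene Mthfd1 fell from 216.0 ± 54.9 to 44.8 ± 25.7 CPM (SD, n = 4 and 6). The 1 rise was that of the Ahcy-like gene Ahcyl1, from 73.3 ± 34.0 to 126.5 ± 26.6 CPM (SD, n = 4 and 6), close to the threshold in edgeR's test (adjusted p = 0.0495).

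Between Mir139KO and WT HSPCs, and between vectors, 0 genes of the partner and proliferation lists were called. Against Mir139KO HSPCs, 3 maintenance partners rose and 5 fell in MLL-AF9 cells, and 3 de novo partners rose and 1 fell. Of the TET partner list 3 rose and 5 fell, and of the reader list 3 rose and 1 fell. In that comparison 0 genes of the 2-oxoglutarate list rose and 11 fell, and 1 of the S-adenosylmethionine list rose and 4 fell. Of the proliferation list 2 rose and 9 fell. Over all genes tested there, 37.3% were called higher and 31.9% lower.

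The order of levels per length changed with these differences. In WT HSPCs Uhrf1 (134.8 RPKM), Dnmt1 (97.9 RPKM) and Idh2 (75.7 RPKM) came first and each overlapped the next, followed after a gap by Idh1 (18.2 RPKM), which overlapped Tet3 (12.1 RPKM). Dnmt3b (5.5 RPKM) and Dnmt3a (4.82 RPKM) overlapped each other, and Tet2 (2.31 RPKM) and Tet1 (0.483 RPKM) came last and also overlapped. The order was the same in Mir139KO HSPCs, where Tet2 and Tet1 did not overlap. In MLL-AF9 cells Dnmt1 (38.3 RPKM), Idh1 (38.0 RPKM), Idh2 (35.5 RPKM) and Uhrf1 (29.5 RPKM) each overlapped the next gene in order, as did Uhrf1 and Tet3 (11 RPKM), and Tet3 and Tet2 (9.91 RPKM). Below a gap came Dnmt3a (2.88 RPKM), overlapping Dnmt3b (1.35 RPKM), and Tet1 (0.173 RPKM) was lowest with no overlap.

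**Figure D4:**
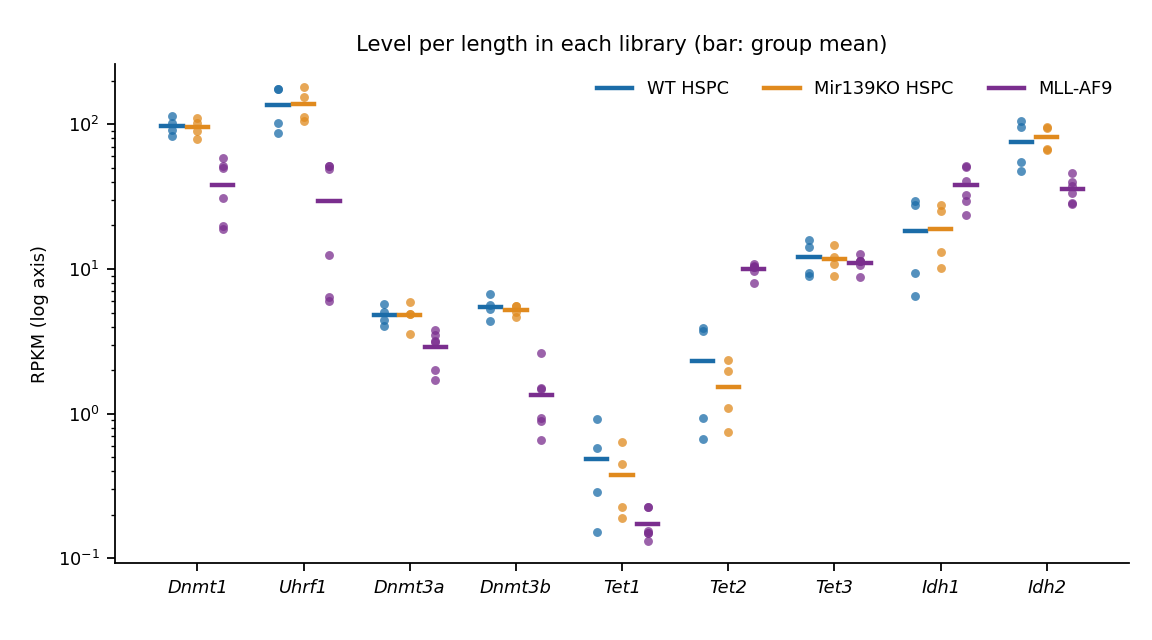
RPKM over the union of exons (log axis) for the 9 genes in WT HSPC, Mir139KO HSPC and MLL-AF9 libraries, 1 point per library with a bar at each group mean. Tet2 moved from near 2.31 RPKM in WT HSPCs to 9.91 RPKM in MLL-AF9 cells, next to Tet3 at 11 RPKM, while Tet1 stayed lowest in all 3 groups.

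Loss of Mir139 gave no called difference in the 9 genes. In edgeR's test the smallest unadjusted p among them was 0.355, 0 of 9 had an unadjusted p under 0.05, and the groups overlapped for all 9, where 0.485% of all genes did not overlap. Over all genes 86, or 0.571% of 15056, had an unadjusted p under 0.05 in edgeR, and DESeq2 called 0 genes with 90 under that value. In edgeR within the libraries under 25% Gm26917, 3279 of 15640 genes were under it, and 558 of 14699 within those over 25%. The fit under 25% set WT replicates 1 and 2 against Mir139KO replicates 2 and 3. The fit over 25% set WT replicates 3 and 4 against Mir139KO replicates 1 and 4. Under 25%, the share was 17 and 17.8% in WT and 21.3 and 21.9% in Mir139KO libraries, so genotype and share cannot be told apart there. With the share class as covariate 536 genes had an unadjusted p under 0.05 in edgeR. The test over both shares includes the Gm26917 split in its spread, so the lack of calls does not show equal levels. The intervals were narrow for some genes and wide for others. For Dnmt1 the log2 fold change was -0.05 (95% interval -0.57 to 0.46), for Dnmt3a -0.01 (-0.52 to 0.49), for Dnmt3b -0.09 (-0.61 to 0.43) and for Tet3 -0.06 (-0.65 to 0.53). For Tet2 it was -0.59 (-1.96 to 0.78), for Tet1 -0.37 (-1.68 to 0.94) and for Idh1 0.06 (-1.13 to 1.25), so that for these 3 genes the intervals reach past 1 on the log2 scale. For Uhrf1 it was 0.03 (-0.70 to 0.75) and for Idh2 0.09 (-0.61 to 0.79).

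Across the HSPC libraries, 7 of the 9 genes separated by the Gm26917 share, where 65% of the 15056 genes tested between the HSPC groups did not overlap either. The 4 HSPC libraries under 25% had 33.1 to 66.3 CPM of Tet2, 6.99 to 14.1 CPM of Tet1, 202.5 to 265.8 CPM of Tet3 and 69.4 to 81.5 CPM of Idh1. The 4 over 25% had 11.3 to 18.5 CPM of Tet2, 2.34 to 4.48 CPM of Tet1, 148.8 to 181.6 CPM of Tet3 and 18 to 36.5 CPM of Idh1, all lower. Uhrf1 and Idh2 went the other way, at 367.7 to 480.9 and 123.1 to 175.4 CPM under 25% and at 652.3 to 773.9 and 245.4 to 271.2 CPM over 25%. Dnmt3a separated narrowly, at 81.5 to 98.5 CPM under and 58.8 to 81.2 CPM over 25%, while Dnmt1 and Dnmt3b overlapped. MLL-AF9 libraries had a lower Gm26917 share than any HSPC library, at 7.55 to 10.4%. Mean levels of Tet2 and Idh1 were higher, and of Uhrf1 and Idh2 lower, both under 25% and in MLL-AF9 cells. Those of Tet1, Tet3 and Dnmt3a were higher under 25% but not in MLL-AF9 cells. The part of the share in the MLL-AF9 differences was not tested. The longest transcripts of Tet1, Idh1 and Tet2 had a GC content of 43.7, 43.8 and 45.4%, and those of the other 6 genes 51.9 to 55.6%, and the part of GC content in these levels was not tested beyond the corrected fits given above.

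**Figure D5:**
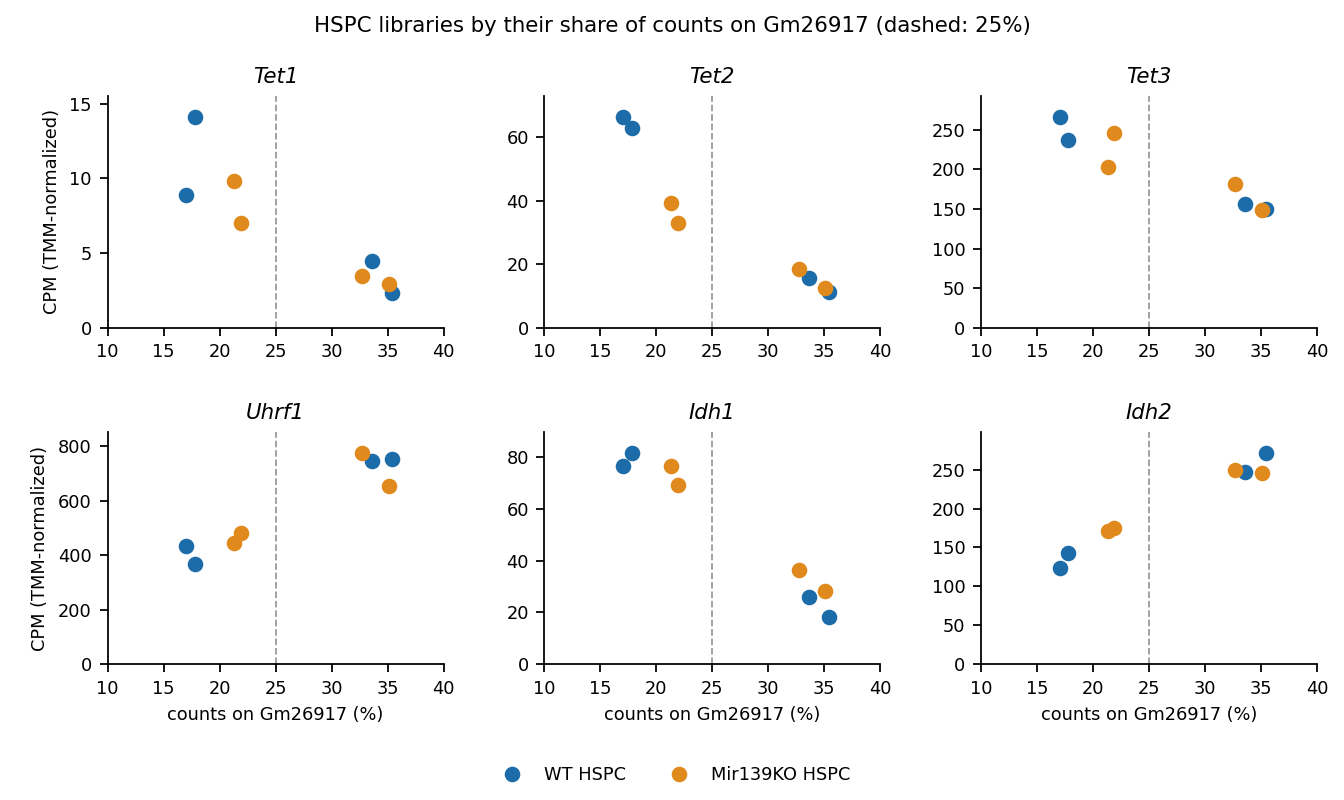
CPM of 6 genes (linear axis from 0) against the percentage of counts on Gm26917 in the 4 WT and 4 Mir139KO HSPC libraries, 1 point per library, with a dashed line at 25%. Tet1, Tet2, Tet3 and Idh1 were higher in all 4 libraries under 25% than in the 4 over 25%, and Uhrf1 and Idh2 were lower.

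Between cultures with the puro and neo vectors the largest differences were in Uhrf1, with a log2 fold change of -0.98 (95% interval -3.17 to 1.21, adjusted p = 0.695), and Dnmt1, with -0.70 (95% interval -1.71 to 0.30, adjusted p = 0.545). Both moved when a single culture was left out. Without MLL-AF9 replicate 5 they were -2.60 (adjusted p = 0.0756) and -1.24 (adjusted p = 0.0713), and without replicate 4 they were -0.54 and -0.47 (adjusted p = 0.992 and 0.976). Of the 9 genes, 0 had an unadjusted p under 0.05 with all cultures. The vectors did not overlap for Tet2 alone, at 134.7 to 173.1 CPM with neo and 174.4 to 181.9 CPM with puro (log2 fold change 0.18, 95% interval -0.25 to 0.61, adjusted p = 0.713), where 19.7% of all genes did not overlap. With either vector alone Tet2, Dnmt1, Uhrf1, Dnmt3b and Idh2 were called against WT HSPCs, with log2 fold changes for Tet2 of 2.02 (neo) and 2.19 (puro) and for Dnmt3b of -2.18 and -1.91.

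Many markers of other blood cells also fell in MLL-AF9 cells against WT HSPCs. Of 7 erythroid markers tested 6 fell, and the summed level of the 8 listed was 552.8 to 1010.1 CPM in WT HSPCs and 54.8 to 208.1 CPM in MLL-AF9 cells, with Alas2 listed at 0 in both. All 6 tested B-cell markers, all 8 T- and NK-cell markers and all 7 mast-cell and basophil markers fell. The sum of the 8 B-cell markers was 34.3 to 66.8 against 1.58 to 6.34 CPM, with Ms4a1 and Rag1 listed at 0 in both, and that of 8 T- and NK-cell markers 100.9 to 179.4 against 2.58 to 12.4 CPM. For 7 mast-cell and basophil markers it was 813.4 to 1949.7 against 5.8 to 32.1 CPM. The sums of 8 neutrophil markers, 1112.9 to 9391.6 against 1351.5 to 3956.1 CPM, and of 8 monocyte and macrophage markers, 926.4 to 1712.1 against 267.7 to 1025.0 CPM, overlapped, with 2 neutrophil markers lower and, of the monocyte and macrophage markers, 4 lower and 1 higher. The part of these cells in the differences of the 9 genes was not tested.

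For each of the 9 genes, the 3 protein-coding genes with the most similar log2 CPM over the 14 libraries were listed. The Pearson r is given as a description, since the libraries fall into separate groups that all genes share. For Dnmt1 they were Ssrp1, Cdk2 and Aurkb (r 0.993, 0.992 and 0.991), a histone chaperone subunit and 2 cell cycle kinases, and for Uhrf1 Rcc1, Alyref and Ruvbl1 (r 0.997, 0.996 and 0.994). For Dnmt3b they were Adgrl1, Meaf6 and Tpd52l2 (r 0.993, 0.992 and 0.990), and for Dnmt3a Cd59a, Mboat2 and Bicd2 (r 0.951, 0.946 and 0.940). For Tet2 they were Ubr3, Phc3 and Lnpep (r 0.997 each), for Tet1 Ift20, Nemp1 and Rfc4 (r 0.956, 0.927 and 0.924), and for Tet3 Zfp84, Elk4 and Sprtn (r 0.952, 0.943 and 0.940). For Idh1 they were Slc16a7, Tgoln1 and Taf9b (r 0.979, 0.969 and 0.967), and for Idh2 Scrn2, Abcb8 and Mfsd10 (r 0.993, 0.992 and 0.991). They were the 3 closest of 14001 genes compared for each.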

How the data were processed

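The authors deposited unnormalized read counts per gene, made with STAR 2.5.3e on GRCm38 and featureCounts 1.6.0 from a GENCODE gene set. How strand and multiply assigned reads were handled is not given in the sources used here. A second deposited table repeats these samples beside 10 columns of another series and was not used.

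Groups, vectors and replicate numbers came from the labels. A gene entered a test with 10 or more counts in a number of samples no lower than the size of the smaller group. Tests were run in edgeR 4.0.16 (limma 3.58.1, R 4.3.3), on the whole table, with TMM factors and the robust quasi-likelihood F test, using the 2 groups compared. A call is an adjusted p under 0.05 (Benjamini-Hochberg, over all genes tested). The SE is the log2 fold change over the square root of F, and 95% intervals use the t distribution of that fit. Printed CPM use TMM factors over all 14 libraries, and RPKM the union of exons of GENCODE M21. Coordinates are GRCm38. The 9 genes, the partner and marker lists and the settings were chosen with earlier results of these data known. Named beside the 9 genes are the 2 largest rises and falls among called genes of each list against WT HSPCs with a mean of at least 10 counts, the 3 most similar genes, and Tdg and D2hgdh, chosen after their values were seen. Some genes under this rule are not reported here.

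Alternatives were RLE factors, total counts only, DESeq2 1.42.0, no low-count filter, all 14 samples in a single fit, Gm26917 left out, a replicate block, a GC correction (spline with 5 degrees of freedom), HSPC libraries under or over 25% Gm26917, the share class as covariate, each vector, replicates 4 and 6 summed, and each replicate left out. The block with the GC correction was added after seeing the data. On simulated data, 200 of 200 genes changed by 2 on the log2 scale were called in each comparison, with 10, 6, 8 and 9 unchanged genes called. The simulation gave all genes the same spread (dispersion 0.05), changed only well-counted genes, and held no Gm26917 split or GC effect. It therefore checks that the code runs as meant and does not measure power or error in these data. Floors cover counting error only.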

Additional observations from a re-analysis of the deposited data

How the results depend on the processing

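With total counts only, the GC correction, or the GC correction with the replicate block, 4, 3 and 4 of the 9 genes were called in MLL-AF9 cells against WT HSPCs in place of 7, and 5, 3 and 4 against Mir139KO HSPCs in place of 8. With total counts only the median of all genes moved from 0.14 to 0.69 and from 0.16 to 0.84, and the share of calls that were higher from 52.7 to 68.3% and from 53.9 to 71.4%. Of all genes 57.8, 58.5 and 51.3% were called under these 3 settings against WT HSPCs, in place of 62.2%, and 66.2, 63 and 58.6% against Mir139KO HSPCs, in place of 69.3%. Leaving out a replicate gave 6 to 7 and 7 to 8 called genes. Tet2 and Dnmt3b kept their call and direction under every alternative run for these 2 comparisons. The size of the Tet2 rise ranged from 1.32 to 3.50 against WT HSPCs. No alternative compared libraries of like Gm26917 share, since all MLL-AF9 libraries (7.55 to 10.4%) lay below all HSPC libraries (17 to 35.4%).

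Tet3, called in neither comparison, changed sign against WT HSPCs to 0.35, 0.35, 0.41 and 0.13 with total counts only, the GC correction, that correction with the block, and the libraries over 25% Gm26917. Against Mir139KO HSPCs it became 0.54, 0.49, 0.49 and 0.06, and without a replicate it ran from -0.26 to 0.00.

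Between the HSPC groups, 1 gene in the whole table was called within the libraries under and 1 within those over 25% Gm26917, in place of 0. Uncalled signs changed for Dnmt1 (0.15), Dnmt3a (0.02), Dnmt3b (0.15) and Idh1 (-0.10) under 25%, for Tet2 (0.17), Tet3 (0.07), Uhrf1 (-0.10) and Idh2 (-0.10) over 25%, for Uhrf1 (-0.03) and Idh1 (-0.11) with total counts only, and for Dnmt3a (0.00 with RLE factors and DESeq2). Without a replicate the ranges were -0.15 to 0.04 for Dnmt1, -0.13 to 0.11 for Dnmt3a, -0.21 to 0.03 for Dnmt3b, -0.74 to 0.13 for Tet1, -0.19 to 0.08 for Tet3, -0.16 to 0.19 for Uhrf1, -0.21 to 0.39 for Idh1 and -0.10 to 0.30 for Idh2.

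Between vectors, DESeq2 called 1326 genes, the fit without a filter 221, a single fit of 14 samples 692, the block with the GC correction 268, and replicates 4 and 6 summed 5, in place of 144. Without a replicate 0 to 990 genes were called, with 990 without replicate 5 and 41, 0, 0, 5 and 3 without replicates 1, 2, 3, 4 and 6. Partner genes called were 2 with DESeq2, 1 with a single fit, 1 with the block and GC correction, and 0 to 3 without a replicate, in place of 0. Uhrf1 ran from -2.60 to -0.54, Dnmt1 from -1.24 to -0.47, Dnmt3a from -0.01 to 0.49 and Dnmt3b from -0.37 to 0.51 without a replicate.

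The replicate numbers were not shown to pair the samples: deviations of same-numbered samples correlated at -0.579 to 0.642 between the HSPC groups and at -0.0549 to 0.0935 between MLL-AF9 cells and WT HSPCs. With the replicate block 7 of the 9 genes were called against WT HSPCs and 7 against Mir139KO HSPCs. Against WT HSPCs Dnmt3a was not called (adjusted p = 0.111) and Idh1 was (adjusted p = 0.0351). MLL-AF9 replicates 5 and 6 have no HSPC sample of the same number. The differences from HSPCs with the block, with or without the GC correction, therefore rest on MLL-AF9 replicates 1 to 4. The block moved the genes called from 10630 to 9300, from 11741 to 11455 and, between vectors, from 144 to 214.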
